A study of Mus musculus with 20 samples.

Results

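The livers of mice given the antisense oligonucleotide SPC4955 were compared with those of mice given SPC3847 at the same dose of 10 mg/kg. The comparison used every array that the labels assign to these treatments, 4 with SPC4955 and 4 with SPC3847, which is 8 of the 20 arrays of the series. Each array held total liver RNA of 1 female C57BL/6 mouse, injected intravenously once a day for 3 days. The last dose fell on day 2, and the livers were taken on day 3 by the treatment protocol, or 4 days after the first dose by the source name. The other 12 arrays, 4 each from mice given saline, SPC3833 at 5 mg/kg and SPC4061 at 10 mg/kg, took no part in the test and are given here only as levels to set beside it. All groups shared the strain, the sex and a standard diet, per the labels. Only the code names of the oligonucleotides are given, so neither a target nor a chemistry is stated, and no gene below is called a target.

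Antisense oligonucleotides are short strands of synthetic nucleic acid that bind RNA by base pairing. Depending on its chemistry, pairing leads to cleavage of the RNA by the enzyme RNase H or blocks the RNA from being used or spliced. After injection into a vein, much of such a compound collects in liver and kidney. RNA other than the intended one can be bound where its sequence matches well enough, which is why liver expression is read out across the genome in studies of such compounds.

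The arrays report 1 log2 intensity for each of 22361 Ensembl mouse gene identifiers. An increase of 1 on this scale is a doubling of the deposited intensity. None of the identifiers (0 of 22361) could be paired with a symbol from the files or the gene table at hand. At most 2 identifiers in each direction are therefore printed, genes are otherwise described by rank and count, and no sequence is shown. The liver identity of the samples could not be checked against marker genes for the same reason. In whole tissue, fewer cells of a type and less RNA per cell cannot be told apart. Array medians lay between 6.40 and 6.50 with SPC4955 and between 6.37 and 6.53 with SPC3847. Correlations across genes were 0.986 to 0.996 between arrays of 1 group, in either group, and 0.979 to 0.994 between an SPC4955 and an SPC3847 array. Genes are not independent replicates, so these correlations describe the arrays.

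The arrays SPC4955 replicate 1 and SPC3847 replicate 4 stood apart from their groups. In the first, 150 genes lay at least 1 log2 unit above all of the other 7 arrays, by up to 7.16, where the remaining arrays of the pair had between 0 and 5 such genes. Of these 150 genes, 115 were matched or exceeded by at least 1 of the 12 arrays outside the pair, and 1 passed the test between the oligonucleotides. SPC3847 replicate 4 had 26 genes at least 1 unit below all of the other 7 arrays, against 0 to 2 in the others. It also had the narrowest distribution, with a quartile range of 2.70 log2 units. The quartile ranges of the other arrays of the pair were between 2.87 and 3.21.

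A small group of genes was far lower with SPC4955 than with SPC3847, and the differences in the other direction were smaller. By limma, a linear model per gene with a spread partly shared across genes, 59 genes were at least 2-fold lower with SPC4955 than with SPC3847 at a Benjamini-Hochberg adjusted p below 0.05, or 0.264% of all genes tested. In the other direction 33 genes were at least 2-fold higher, or 0.148%, which makes 92 genes (0.411%) in all. Among the genes at least 4-fold apart that passed this threshold, 7 were lower and 0 higher with SPC4955, and 1 was lower by more than 16-fold. With any size of difference counted, 267 genes were lower with SPC4955 (1.19%) and 336 higher (1.5%). The typical difference was alike in size in both directions, with a median of -0.63 on the log2 scale among the lower genes and 0.58 among the higher. In every one of these 603 genes (2.7%) the 4 arrays of each oligonucleotide did not overlap, as they did not in 6.78% of all genes upward and 4.13% downward.

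**Figure D1:**
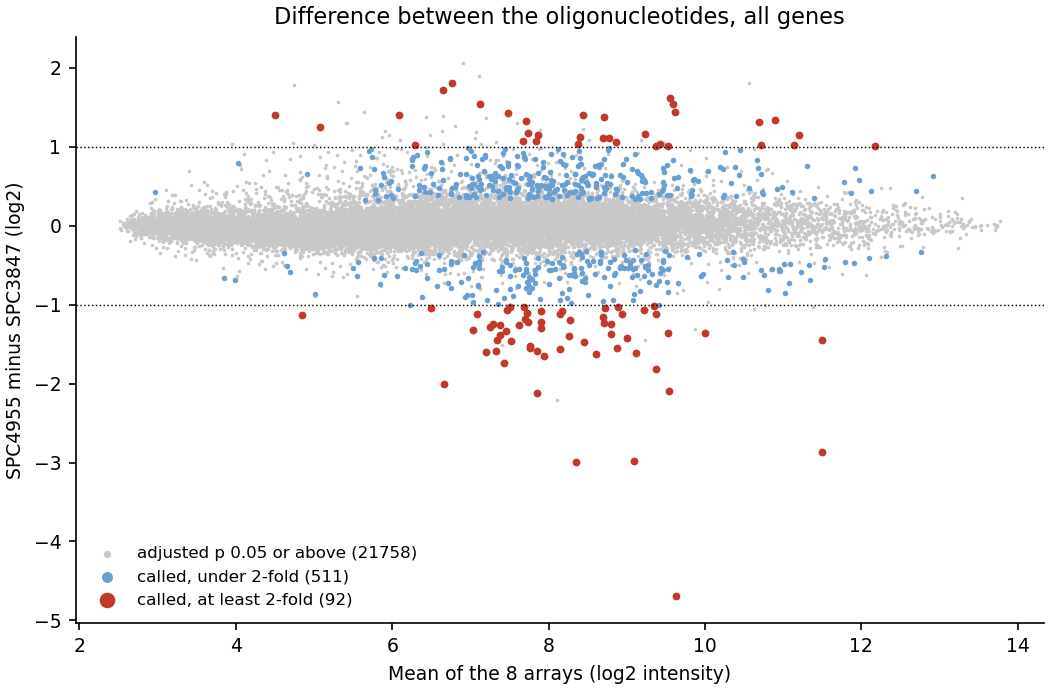
Each point is 1 gene, with its mean over the 8 arrays (log2 intensity) on the x axis and the difference SPC4955 minus SPC3847 (log2) on the y axis; dotted lines mark 2-fold. The 59 red points at the bottom reach -4.69 and 7 of them lie beyond 4-fold, while the 33 red points at the top end at 1.80.

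The counts of genes at least 2-fold apart held under other settings better than the counts of any size. With 1 array left out, 56 to 66 genes were at least 2-fold lower. At least 2-fold higher were 25 to 34, except for 52 without SPC3847 replicate 1. The count of genes higher at any size was 147 without SPC4955 replicate 2, 160 without SPC4955 replicate 3, 194 without SPC4955 replicate 4 and 121 without SPC3847 replicate 2, against 336. The count lower at any size was 162, 167, 167 and 175 without SPC4955 replicate 2, SPC4955 replicate 3, SPC3847 replicate 2 and SPC3847 replicate 3, against 267. Which direction held more genes of any size depended on scaling: 55.7% of the genes called were higher as deposited, 44.1% after median centring and 45.7% after quantile normalization. For genes at least 2-fold apart that passed the test, more were lower than higher in each of the 18 fits, the reported one included. This holds for genes that passed only. In the reported fit a further 32 genes had a mean at least 2-fold higher without passing, and 7 a mean at least 2-fold lower.

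**Figure D2:**
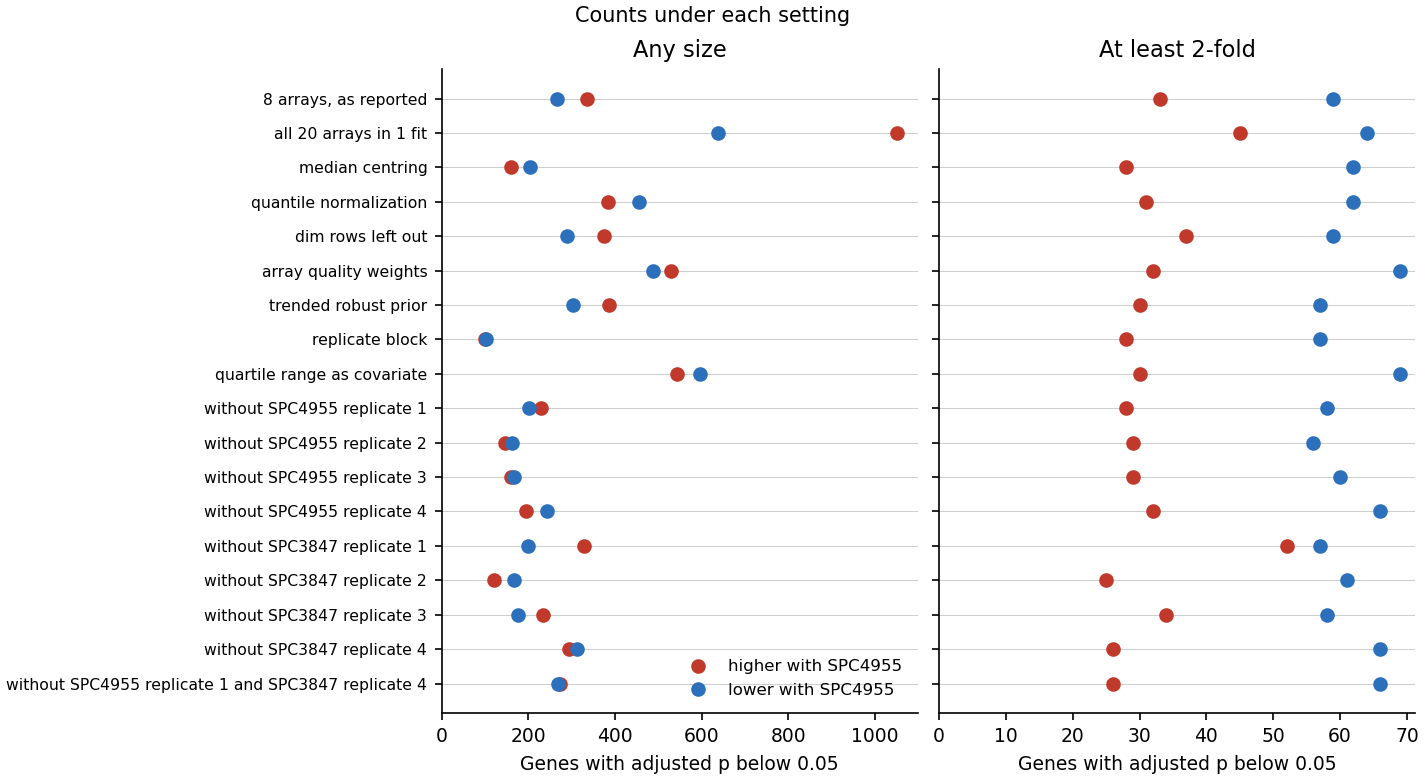
Number of genes with an adjusted p below 0.05 (x axis) under each setting (y axis), for any size of difference (left) and at least 2-fold (right), higher with SPC4955 in red and lower in blue. On the right the blue counts stay between 56 and 69 and the red between 25 and 52; on the left both move and change places.

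The largest difference was in ENSMUSG00000028127. Its log2 intensity with SPC4955 was 7.24, 7.20, 6.97 and 7.72 in replicates 1 to 4, and with SPC3847 12.05, 11.95, 11.93 and 11.98. Saline mice had 12.01 to 12.10, inside or beside the SPC3847 values, so the SPC4955 arrays were the ones set apart. The difference was -4.69 ± 0.14 (SE, n = 4 each; limma adjusted p = 2.19e-07), or 25.9-fold lower with SPC4955 with a 95% interval of 20.9 to 32.0. With saline this gene was brighter than 99.1% of all genes, and its mean with SPC4955 minus that with saline was -4.77 on the log2 scale. Its levels with SPC3833 (11.84 ± 0.11, SD, n = 4) and SPC4061 (12.05 ± 0.09) were more than 4 units above every SPC4955 array.

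The second largest difference was in ENSMUSG00000019889. Its levels were 6.63, 6.86, 6.79 and 7.11 with SPC4955 and 9.91, 9.86, 9.93 and 9.69 with SPC3847. The groups were again far apart, with a difference of -3.00 ± 0.11 (SE, n = 4 each; limma adjusted p = 7.37e-07), or 7.98-fold (95% interval 6.77 to 9.41). Saline (9.71 ± 0.05, SD, n = 4) and SPC3833 (9.66 ± 0.02) lay close to SPC3847. SPC4061 gave an intermediate level, 7.89 to 8.22 over its 4 arrays, below all saline arrays and above all SPC4955 arrays. The 2 largest differences thus lay in 1 gene near its saline level with each other oligonucleotide, and in 1 that was intermediate with SPC4061.

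The genes of rank 3 to 7 among those that passed the test and were lower with SPC4955 were each more than 4-fold apart. The gene of rank 3 stood at 7.60 ± 0.29 with SPC4955 and 10.58 ± 0.08 with SPC3847 (SD, n = 4 each; 7.87-fold, limma adjusted p = 2.64e-06), and the other 3 groups had means of 10.62 to 10.73. The gene of rank 4 was one of the brightest of the series at 12.97 ± 0.02 with saline, and stood at 10.07 ± 0.28 with SPC4955 and 12.93 ± 0.03 with SPC3847 (7.27-fold, limma adjusted p = 2.64e-06). Its level was 10.92 ± 0.17 with SPC3833, between these, and 12.95 ± 0.02 with SPC4061. For ranks 5, 6 and 7 the differences were 4.34-fold, 4.25-fold and 4.02-fold, and in each the means with saline, SPC3833, SPC4061 and SPC3847 lay within 0.56 of each other on the log2 scale.

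The higher genes had smaller differences and wider spread between mice. ENSMUSG00000029372 had levels of 8.70, 7.31, 7.04 and 7.63 with SPC4955 and 6.06, 5.62, 6.15 and 5.64 with SPC3847. All 4 SPC4955 arrays were above all others of the series, and the highest came from replicate 1, the array with many genes high on its own. The difference was 1.80 ± 0.31 (SE, n = 4 each; limma adjusted p = 0.0133), or 3.49-fold (95% interval 2.17 to 5.61), and 1.46 without that array (limma adjusted p = 0.00347). Without SPC3847 replicate 2 the difference was 1.72 and no longer passed (limma adjusted p = 0.0557). Saline mice had 5.38 to 5.88, next to the SPC3847 values.

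ENSMUSG00000034774 had levels of 7.29, 8.12, 7.15 and 7.47 with SPC4955 and 5.71, 5.71, 6.35 and 5.37 with SPC3847. The difference was 1.72 ± 0.24 (SE, n = 4 each; limma adjusted p = 0.00431), or 3.30-fold (95% interval 2.29 to 4.75). This gene was also high with SPC4061, at 7.54 to 7.94, a range that overlapped that of SPC4955. With saline (5.57 ± 0.36, SD, n = 4) and SPC3833 (5.63 ± 0.35) it was as low as with SPC3847. Both higher genes were fairly dim with saline, brighter than 36.0% and 33.5% of all genes, and how much background their low values hold was not tested.

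**Figure D3:**
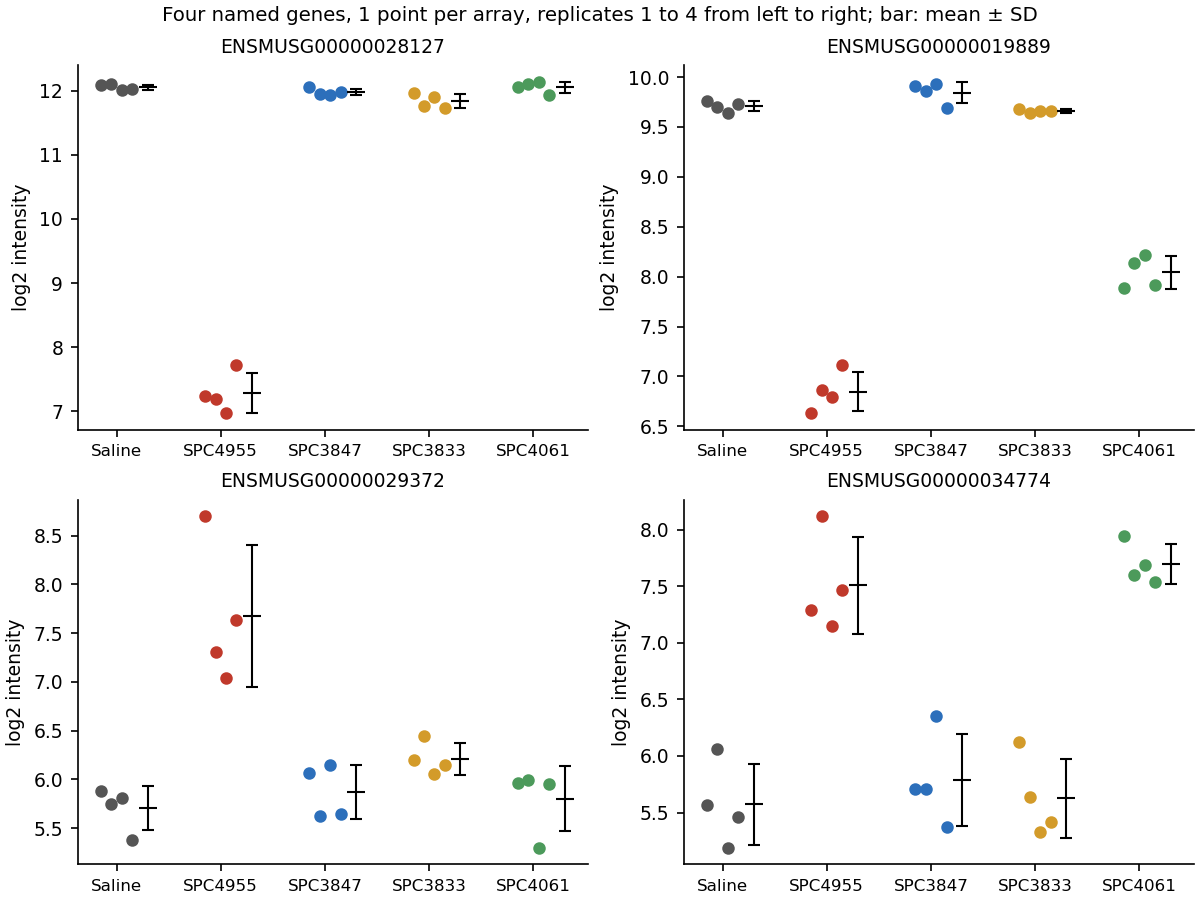
log2 intensity of the 4 named genes (y axes) in each array of the 5 groups (x axes); points are replicates 1 to 4 from left to right and bars are mean ± SD over 4 arrays. The SPC4955 points lie below every other array for ENSMUSG00000028127 and ENSMUSG00000019889, above every other array for ENSMUSG00000029372, and beside SPC4061 for ENSMUSG00000034774.

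The levels with saline, which the test did not use, show on which side each set of genes departed. Among the 59 genes at least 2-fold lower with SPC4955, the saline mean was nearer to SPC3847 in 56 (94.9%), against 52.7% over all genes. The median of these 59 genes was -1.35 with SPC4955 and 0.00 with SPC3847, each as mean minus saline mean on the log2 scale. In 49 of the 59 the SPC4955 arrays lay below all 4 saline arrays while the SPC3847 arrays overlapped them, as in 2.90% of all genes. The 59 genes were chosen with SPC4955 below SPC3847, and among all 924 genes whose arrays had that order the share was 36.5%. In 5 more the SPC4955 arrays lay below saline and the SPC3847 arrays above it (3.03% of the 924), in 2 both lay below (2.16%), and in 3 SPC3847 alone left the saline range, upward (22.6%). With SPC4955 51 of the 59 genes were at least 2-fold below the saline mean (0.353% of all genes), and with SPC3847 0 were below and 1 was above by that much. Both columns of values share the same 4 saline arrays. The shares nearer to SPC3847 and at least 2-fold from saline were not counted among the 924. They therefore have only all genes beside them, which were not chosen by the order of the arrays.

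Most of the lower genes were also low against the remaining oligonucleotides. In 52 of the 59, the 4 SPC4955 arrays lay below all 16 other arrays of the series. The choice of the genes already fixed the order against the 4 SPC3847 arrays, and among the 924 genes with that order 214 (23.2%) lay below all 16. With the other oligonucleotides the median of these genes relative to saline was -0.11 for SPC3833 and -0.02 for SPC4061 on the log2 scale. At least 2-fold below saline were 6 of the 59 with SPC3833 (0.510% of all genes) and 2 with SPC4061 (0.344% of all genes). Some of the 59 were lower with SPC3833 than with SPC4955. The gene of rank 8 had means of 7.825 with SPC3833 and 8.462 with SPC4955. Relative to saline, the arrays of the gene of rank 46 were at -2.11 to -1.97 with SPC3833 and -1.31 to -0.94 with SPC4955. In 1 of the 59 the SPC3847 arrays lay above all 16 others, against 44 (4.76%) of the 924, and this count was 1 to 4 over the other settings, with 4 after quantile normalization and 3 without SPC3847 replicate 4. Under the 15 other settings in which this could be counted, 48 to 60 genes were at least 2-fold lower with SPC4955 below all other arrays.

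**Figure D4:**
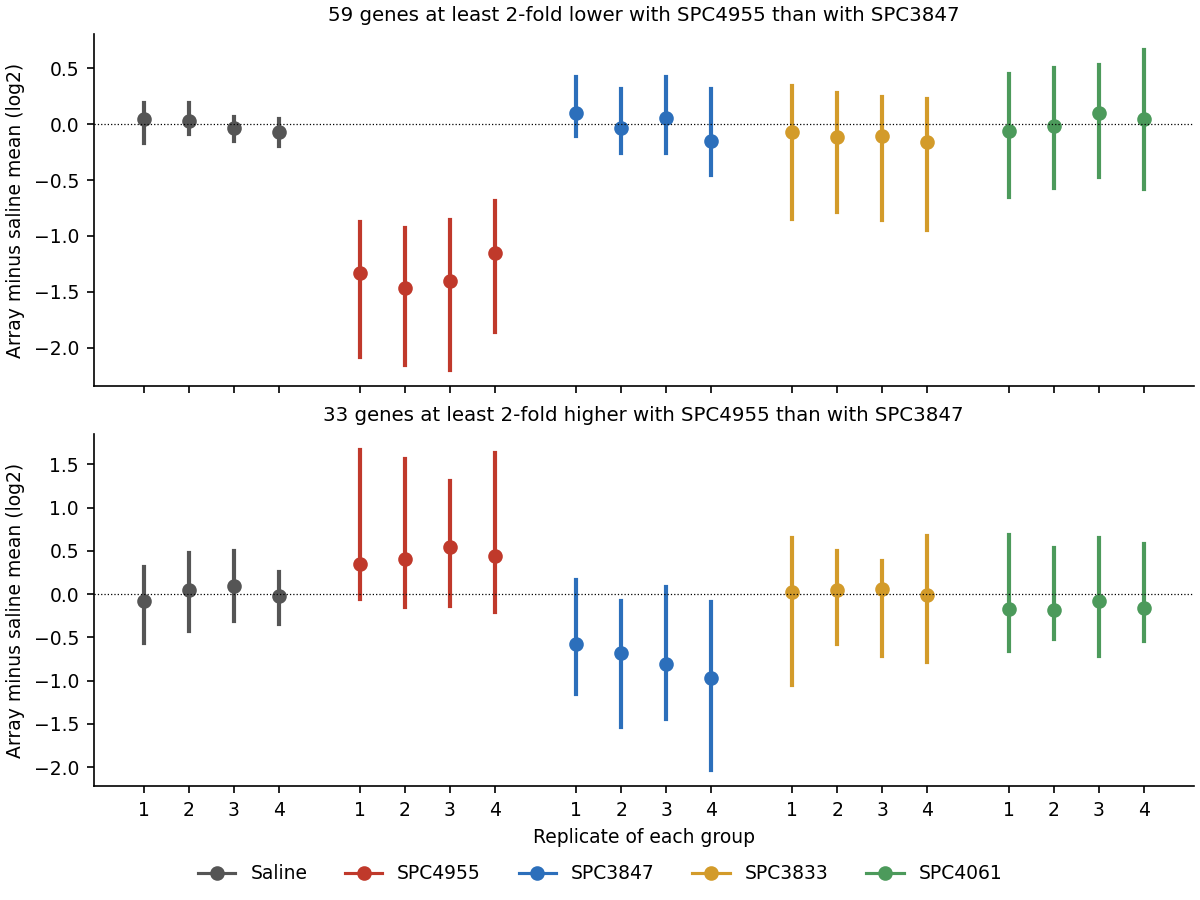
Level in each of the 20 arrays minus the mean of the saline arrays (log2, y axis), as the median (point) and the 10th to 90th percentile (line) over the 59 genes lower (top) and the 33 genes higher (bottom) with SPC4955 than with SPC3847, by group and replicate (x axis). In the top panel the 4 SPC4955 medians are between -1.47 and -1.15 and every other array is within 0.16 of 0; in the bottom panel SPC4955 lies above 0 and SPC3847 below it.

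The 33 genes at least 2-fold higher with SPC4955 were of a mixed kind. In 11 the SPC4955 arrays lay above all saline arrays and the SPC3847 arrays overlapped saline, against 35.1% of the 1517 genes whose SPC4955 arrays lay above all SPC3847 arrays and 5.95% of all genes. In 14 it was the other way round, with SPC3847 below all saline arrays and SPC4955 overlapping them (18.3% of the 1517 and 2.27% of all genes), and in the remaining 8 both overlapped saline (41.3% and 83.2%). The saline range rests on 4 arrays, and saline replicate 1 stood apart from the others. The SD over genes of its deviation from the group mean was 0.270, against 0.149 to 0.163 in the others. How far this array set the split was not tested. The saline mean was nearer to SPC3847 in 12 of the 33 (36.4%), against 52.7% over all genes. The median of the 33 genes was 0.46 above saline with SPC4955 and -0.75 with SPC3847 on the log2 scale. At least 2-fold above saline were 7 with SPC4955 (0.107% of all genes), and at least 2-fold below saline were 12 with SPC3847 (0.273% of all genes). With SPC3833 3 of the 33 were at least 2-fold below saline (0.510% of all genes) and 0 above. With SPC4061 2 were at least 2-fold above (0.161% of all genes) and 0 below. The SPC4955 arrays lay above all 16 other arrays in 7 of the 33 (9.1% of the 1517), and the SPC3847 arrays lay below all 16 others in 5 (7.71% of the 1517). Without SPC3847 replicate 1, the latter count was 17 of 52, and without SPC4955 replicate 2 it was 3 of 29.

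Among the largest differences upward that passed the test, some genes were low with SPC3847 and others high with SPC4955 when set beside saline. The gene of rank 3 in this direction stood at 10.37 ± 0.38 with SPC4955 and 8.75 ± 0.37 with SPC3847 (SD, n = 4 each; 3.07-fold, limma adjusted p = 0.00357), with saline in between at 9.87 ± 0.65. The gene of rank 9 stood at 6.79 ± 0.09 with SPC4955, 5.38 ± 0.62 with SPC3847 and 6.92 ± 0.33 with saline (2.65-fold, limma adjusted p = 0.016), and its SPC3847 arrays were below all 16 others. Its means with SPC3833 (6.26 ± 0.14) and SPC4061 (6.44 ± 0.18) were also below that with saline. The gene of rank 5 differed in the opposite manner, at 10.36 ± 0.34 with SPC4955, 8.82 ± 0.54 with SPC3847 and 8.43 ± 0.22 with saline (2.90-fold, limma adjusted p = 0.0115), and its SPC4955 arrays were above all 16 others. Its means with SPC3833 (9.08 ± 0.54) and SPC4061 (9.48 ± 0.38) were also above that with saline.

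**Figure D5:**
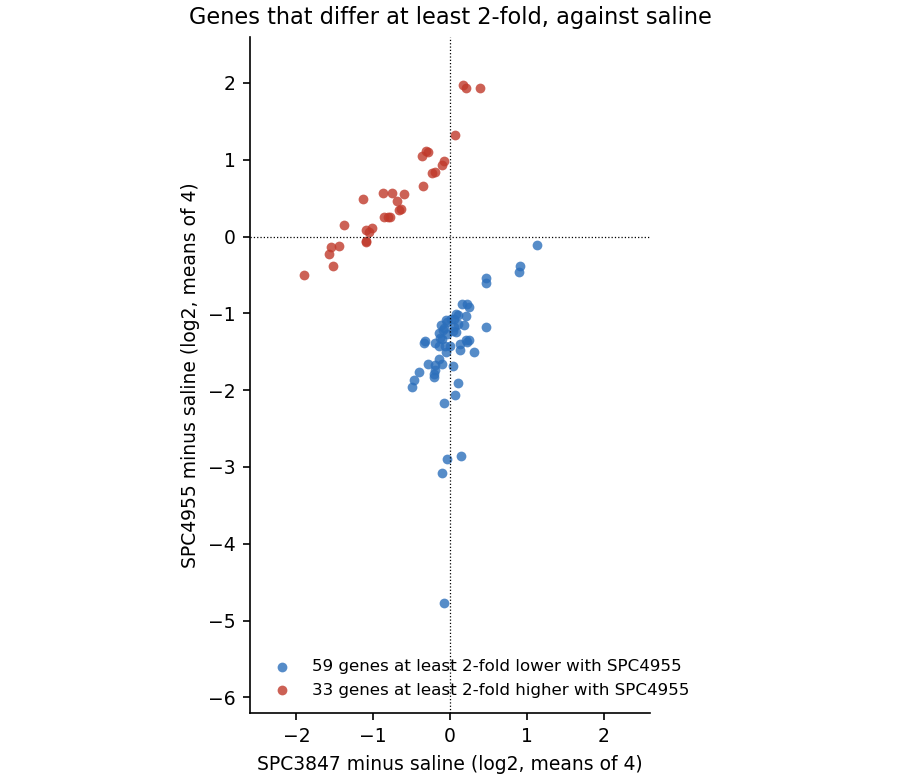
Each point is 1 of the 92 genes at least 2-fold apart, with SPC3847 minus saline on the x axis and SPC4955 minus saline on the y axis (log2, means of 4 arrays, sharing the saline arrays). The 59 lower genes (blue) hang mostly along x = 0 down to -4.77, and the 33 higher genes (red) run from SPC4955 near 0 with SPC3847 low to SPC4955 high with SPC3847 near 0.

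With SPC4955 and SPC3847 both sets varied more between mice than the median gene, and the higher genes more than the lower. The median SD over the 59 lower genes was 0.202 with SPC4955, 0.165 with SPC3847 and 0.101 with saline, and over the 33 higher genes 0.261, 0.318 and 0.289. Over all genes the medians were 0.120, 0.152 and 0.129. Within SPC4955, 1 mouse showed smaller departures than the others. Replicate 4 had the highest level of its group in 42 of the 59 lower genes (71.2%), against 28.3% of all genes, and its median over the 59 genes was -1.15 relative to saline where the others had -1.33, -1.47 and -1.40. It was the highest in 45 after median centring, when 39.9% of all genes had it highest, and in 40 after quantile normalization, against 27.1%. In the SPC3847 group, replicate 4 had the lowest level in 43 of the 59 genes (72.9%), against 29.9% of all genes. That count was 51 after median centring (45.7% of all genes) and 28 after quantile normalization (30.1% of all genes). SPC4955 replicate 4 had the widest distribution of its group, with a quartile range of 3.21 against 2.99 to 3.03 in the others. The part of that width in the result was not tested. For ENSMUSG00000028127 and ENSMUSG00000019889 SPC4955 replicate 4 was again the highest of its group.

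Genes that told the oligonucleotides apart were mostly bright with saline. Of the 59 lower genes 48 (81.4%) and of the 33 higher genes 23 (69.7%) were among the brightest 25% of genes by saline level, which start at 8.04. Among the dimmest 25%, below 5.09, 0 of the lower and 2 of the higher genes were found. Of all differences of any size, 5 lower and 5 higher genes came from these dim genes. No measure of background was at hand, so a difference among the dimmest genes may not have been detectable.

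For most genes the data bound the difference between the oligonucleotides closely. At the median over genes, the 95% interval reached 0.23 to either side of the estimate on the log2 scale, or 1.17-fold. It lay wholly within 2-fold in either direction for 97.5% of genes, and wholly within 0.5 log2 units for 82.0%. For 352 genes (1.57%) the test was not passed and the interval reached 2-fold or more in at least 1 direction. A difference of that size was thus not excluded for these genes. Among these were 32 genes with a mean at least 2-fold higher with SPC4955, by up to 2.06 log2 units, and 7 at least 2-fold lower, by up to 2.21. In 19 of the 32, SPC4955 replicate 1 was at least 1 unit above all of the other 7 arrays, and the median SD with SPC4955 over the 32 was 1.59, against 0.254 with SPC3847. In 14 of the 32 all SPC4955 arrays lay above all SPC3847 arrays, against 6.78% of all genes. In 2 of the 7 they all lay below, against 4.13% of all genes. The limma adjusted p of these 39 genes was between 0.0552 and 0.668.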

How the data were processed

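Total RNA was labelled with biotin by a whole-transcript sense-target method and read on Affymetrix arrays of 1 colour, according to the labels. The authors deposited log2 intensities, already summarised to 1 value per Ensembl identifier and array, with no missing value. The affy package was used, per the submitters' processing notes. Background correction, normalization and probe assignment are not given in sources used here, and arrays shared neither an exact median nor a width, which moves counts of small differences. No further scaling or filter was applied.

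Groups came from the sample titles. SPC4955 minus SPC3847 was fitted over the 8 arrays with limma 3.58.1 in R 4.3.3 (lmFit, eBayes with the default prior, 6 residual degrees of freedom), with Benjamini-Hochberg adjustment over 22361 genes and a threshold of 0.05. This was 1 pair of oligonucleotides. The 8 arrays alone were used because groups differed in spread, and all 20 were an alternative. The step was tested on simulated data. Alternatives were scaling, a filter on dim rows, array weights, the prior, a replicate block, the quartile range as covariate, and left-out arrays. Counts of genes whose arrays lie beyond all others were chosen after seeing the data.

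Named genes were the 2 largest differences each way with an adjusted p below 0.05 and arrays that did not overlap, the form of the rule for rows without symbols. The 18 gene lists and 11 marker lists could not be applied, since no identifier was paired with a symbol. Members, lists and settings were chosen with earlier results of these data known. The precision is set by 4 arrays per group. The labels call the replicates biological.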

Additional observations from a re-analysis of the deposited data

Results flagged for a closer look

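In 26 groups of 4 arrays (the 4 named genes in 5 groups, and 3 measures of the arrays in the groups compared), 2 had a highest or lowest array separated from the others by more than 0.829 of the whole range, and chance alone gives about 1 in 20. ENSMUSG00000029372 was 5.30 in SPC4061 replicate 3, an array outside the comparison, against 5.95 to 5.99 in the others of that group. The quartile range of SPC4955 replicate 4 was 3.21, against 2.99 to 3.03 in the others of its group.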

How the results depend on the processing

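Counts of genes higher and lower at any size, 336 and 267 as reported, were 1051 and 638 with all 20 arrays in 1 fit, 529 and 488 with array quality weights, and 543 and 597 with the quartile range as covariate. After median centring 160 were higher, and after quantile normalization 455 were lower. With the replicate block they were 99 and 101. The sample titles number the replicates and name no pairing, so the block only marks a shared number. Same-numbered arrays deviated from their group means with correlations of -0.178, 0.0546, -0.216 and -0.496. Arrays of unlike number were not compared in this way, so these values cannot settle whether the numbers pair the arrays. With 1 array left out, or both SPC4955 replicate 1 and SPC3847 replicate 4, 121 to 328 were higher and 162 to 313 lower, and of those at least 2-fold apart 25 to 52 were higher and 56 to 66 lower. Without both of those arrays the counts were 273, 269, 26 and 66. Arrays of the 603 genes do not overlap, so no choice of arrays can reverse their direction, and the scalings and the covariate did not reverse any. The 4 named genes passed in all 17 alternatives, with 1 exception: ENSMUSG00000029372 without SPC3847 replicate 2 (adjusted p = 0.0557). Its limma adjusted p otherwise ranged from 0.000107 to 0.0353. The cause of these shifts was not tested. With 4 arrays per group and no measure of background, small differences and dim genes are the least certain.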
